A study of Mus musculus with 8 samples.

Results

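The keratins are the intermediate filament proteins of epithelial cells. The genes described here were chosen by name: a probe set was taken if its annotation named a single gene whose symbol was Krt followed by a number. The rule found 49 keratin genes among the 22840 genes with 1 symbol and a value on all 8 arrays, 27 of them on chromosome 11 and 22 on chromosome 15. They were divided by their textbook site of expression into 15 keratins of stratified epidermis, 6 of simple epithelium, 14 of the hair shaft, 7 of the inner root sheath and 7 others.

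RNA came from 8 MT-ret tumours grown in C57BL/6N mice from pieces of tumour implanted on the ventral flank. An antibody that blocks angiopoietin-2 (anti-Ang2) was given for 4 of the tumours and an IgG isotype control for the other 4, from day 7 after implantation until the primary tumour was removed. MT-ret is a transgenic mouse melanoma in which a metallothionein promoter drives the Ret oncogene, and both groups carried the same tumour in hosts of the same strain. Each array measured whole tumour RNA, so melanoma cells, blood vessels, stroma and any attached skin were read together, and fewer cells of a type cannot be told apart from less RNA per cell. The labels do not say that replicates were separate animals, and p-values measure the spread between these samples.

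Keratins pair: an acidic type I chain joins a basic type II chain to form the filament. Basal cells of the epidermis make Krt5 with Krt14, cells that have left the basal layer make Krt1 with Krt10, simple epithelia make Krt8 with Krt18, and the hair follicle has sets of its own. Melanocytes lie among basal keratinocytes but use vimentin in place of keratins, so in a melanoma the keratins mainly mark admixed epithelium, although Krt8 and Krt18 are known from some melanomas.

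The tumours carried the melanocytic signal their label implies. Of 11 measured melanocytic genes, 10 lay above the median gene, and dopachrome tautomerase (Dct), a pigment enzyme, averaged 13.55 ± 0.07 log2 intensity in anti-Ang2 tumours and 13.66 ± 0.04 in IgG tumours (SD, n = 4 each). Array medians ranged from 6.09 to 6.15 and correlations between arrays from 0.967 to 0.988. Tissue content was uneven: the mean signal of 16 skeletal muscle genes ranged from 5.93 to 7.38 in anti-Ang2 tumours and from 6.21 to 9.44 in IgG tumours. All 16 muscle genes were lower on average in anti-Ang2 tumours, and all 10 immediate early genes, which also respond to tissue handling, were higher. Each of the 16 muscle genes was highest in 1 tumour, IgG replicate 1. The muscle mean of anti-Ang2 replicate 2 (7.38) was above those of IgG replicates 3 (6.21) and 4 (7.26). At an unadjusted limma p under 0.05, 10 of 16 muscle genes were lower, against 3% of all genes. By the same measure 6 of 10 immediate early genes were higher, against 4.09% of all genes. No gene in either list passed at an adjusted p under 0.05, but neither did any of the 22840 genes. The part of muscle content or handling in the keratin values was not tested.

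One IgG tumour stood apart in 3 epidermal keratins. IgG replicate 2 lay at least 0.5 log2 units above each of the 7 other arrays for 25 of 22840 genes (0.109%), and 3 of these were keratins: Krt10, Krt1 and Krt77. Results on these 3, and on the other keratins whose difference changed sign without it, are given both ways, and the plot of keratin differences shows every keratin both ways. IgG replicate 2 was not the array with the most genes apart by this measure. IgG replicate 1 stood apart for 195 genes (0.854%), 0 of them keratins. Anti-Ang2 replicate 1 did so for 92 genes (0.403%), 1 of them a keratin (Krt33a).

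Most keratins gave a low array signal. The median of all gene means was 6.10 log2 intensity, and 6 of 49 keratins (12.2%) had a mean over the 8 tumours above it: Krt8, Krt81, Krt10, Krt42, Krt80 and Krt77. The other 43 were not above it, with Krt34 just below at 6.09. Keratin means lay between the 13.8th percentile of all gene means (Krt6b) and the 56.6th (Krt8), with a median at the 35.5th percentile. Probe sets differ in how strongly they bind, so a percentile places an array signal and not an amount of RNA.

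**Figure D1:**
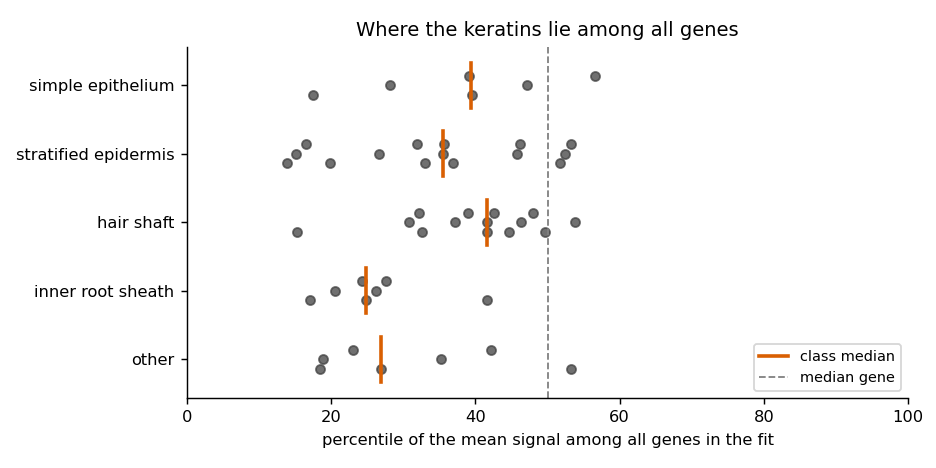
Percentile of each keratin's mean signal over 8 tumours among the 22840 genes of the fit. Each point is 1 keratin, short vertical lines mark class medians and the dashed line marks the median gene, which 6 of 49 keratins exceeded, none of them an inner root sheath keratin.

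Each class lay mostly below the median gene. The median percentile was 39.3 for the simple epithelial keratins, 35.5 for those of stratified epidermis, 41.6 for those of the hair shaft, 24.8 for those of the inner root sheath and 26.8 for the others. Above the median gene were 1 of 6 simple epithelial, 3 of 15 epidermal, 1 of 14 hair shaft, 0 of 7 inner root sheath and 1 of 7 other keratins. Olfactory receptor genes, a list chosen after the values were seen because they are mostly silent outside the nose, gave a yardstick for low signal: the median of their 1095 means was 5.28 and their 95th percentile 5.88. Only 18 of 49 keratins had a mean above that percentile.

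Krt8, a type II keratin of simple epithelia, was the single keratin above the array median on every array. It read 6.57, 6.36, 6.43 and 6.30 log2 intensity in anti-Ang2 tumours 1 to 4, against 6.32, 6.49, 6.27 and 6.39 in IgG tumours 1 to 4. The groups overlapped throughout this narrow range. Krt81, a type II keratin of the hair cortex, read 6.36, 6.37, 6.15 and 6.25 in anti-Ang2 tumours and 6.13, 6.15, 6.47 and 6.15 in IgG tumours. Krt42, a type I keratin, read 6.26, 6.14, 6.47 and 6.19 in anti-Ang2 tumours and 6.22, 6.29, 6.31 and 5.95 in IgG tumours. Both genes stayed close to the median gene with overlapping groups.

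**Figure D2:**
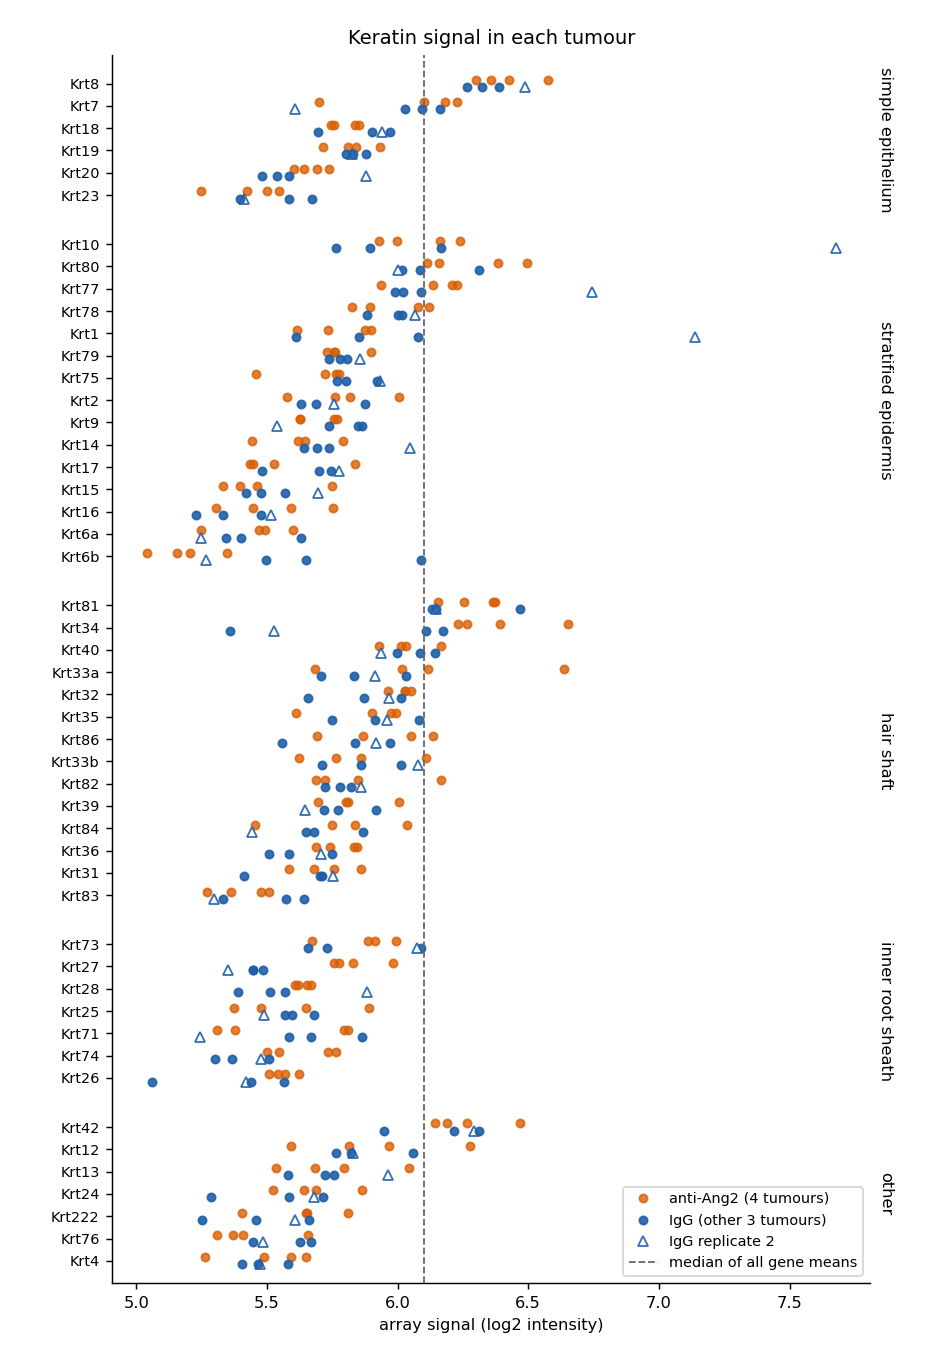
Log2 intensity of every keratin in each tumour, by class and, within a class, by mean signal. Orange points are anti-Ang2 tumours, blue points IgG tumours, open triangles IgG replicate 2, and the dashed line is the median of all gene means (6.10). Krt10, Krt1 and Krt77 show a triangle far to the right of the other 7 tumours.

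The place of Krt10 and Krt77 above the median gene rested on IgG replicate 2. Without that tumour their means were 6.02 and 6.09, both below the median gene, Krt34 entered at 6.17, and 5 keratins were above the line. Without IgG replicate 4, Krt34 joined the original 6. When each of the other 6 tumours was left out in turn, the same 6 keratins were above it.

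The promoters of the keratins on which these results turn are shown because they control the genes that stood out in 1 tumour (Krt10, Krt77), led in level (Krt8) or did not overlap between antibodies (Krt27, Krt34). Each is the 100 bases before the RefSeq transcription start in GRCm38.p6, on the minus strand, 5′ to 3′, with capitals marking the TATA box letters TATAAA where present. They lie at chr11:99389365-99389464 (Krt10), chr15:101869706-101869805 (Krt77), chr15:102004343-102004442 (Krt8), chr11:99351119-99351218 (Krt27) and chr11:100041555-100041654 (Krt34).
Krt10: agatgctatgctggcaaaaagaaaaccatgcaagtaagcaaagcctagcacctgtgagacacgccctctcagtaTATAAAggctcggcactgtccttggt
Krt77: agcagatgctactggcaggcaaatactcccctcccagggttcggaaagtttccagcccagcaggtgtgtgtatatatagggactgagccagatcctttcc
Krt8: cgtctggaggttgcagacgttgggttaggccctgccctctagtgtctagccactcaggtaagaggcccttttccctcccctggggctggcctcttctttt
Krt27: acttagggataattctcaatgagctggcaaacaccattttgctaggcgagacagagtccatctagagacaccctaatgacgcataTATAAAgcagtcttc
Krt34: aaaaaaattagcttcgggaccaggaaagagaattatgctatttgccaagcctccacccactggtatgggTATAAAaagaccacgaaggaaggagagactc

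The letters TATAAA began 26 bases before the start of Krt10, 15 before that of Krt27 and 31 before that of Krt34, and were absent from the windows of Krt77 and Krt8. Only these exact letters were searched for, and the similar run tatatata in the Krt77 window was not counted. RefSeq promoters were matched for 33 of the 49 keratin genes, Krt1 not among them, 34 promoters in all. Searched on both strands over the 250 bases before the start, TATAAA was in 16 of 34 keratin promoters (47.1%), against 12.4% of 32851 promoters of all genes. An AP-1 motif (TGANTCA) was in 2 keratin promoters (5.88%), against 6.75% of all promoters, and an AP-2 motif (GCCNNNGGC) in 4 (11.8%), against 13.7%. Overlaps between the 3 motifs were not counted, and a match describes the letters and not binding.

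Krt10 and Krt1 form the filaments of epidermal cells above the basal layer. Krt10 (probe set 17269064, chromosome 11) read 6.16, 5.93, 6.24 and 6.00 log2 intensity in anti-Ang2 tumours 1 to 4, against 5.77, 7.68, 5.89 and 6.17 in IgG tumours 1 to 4. Krt1 (17322039, chromosome 15) read 5.73, 5.88, 5.62 and 5.90 in anti-Ang2 tumours and 5.85, 7.14, 5.61 and 6.08 in IgG tumours. In both genes IgG replicate 2 was high and the other 7 tumours overlapped. It lay 1.68 above the median of the other 7 for Krt10 and 1.29 above for Krt1, and its gaps to the next tumour, 1.44 and 1.06, were wider than for any of the other genes at least 0.5 above all other arrays in that tumour.

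Krt77, a type II keratin of suprabasal epidermis and sweat ducts, followed with 6.21, 6.14, 6.23 and 5.94 in anti-Ang2 tumours and 5.99, 6.74, 6.02 and 6.09 in IgG tumours. Krt14, the type I chain of basal cells, read 5.65, 5.79, 5.44 and 5.62 in anti-Ang2 tumours and 5.64, 6.05, 5.69 and 5.74 in IgG tumours. Its basal partner has no probe set of its own here, and 1 probe set naming both Krt5 and Krt6a, which is not among the 49, read 6.23, 6.01, 5.86 and 5.89 in anti-Ang2 tumours and 6.08, 6.62, 5.72 and 6.00 in IgG tumours. In both basal probe sets, too, IgG replicate 2 was the highest tumour, by less than in Krt10 and Krt1.

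The genes that stood apart in the same tumour were of mixed kinds. Besides the 3 keratins, epidermal genes among the 25 were Dmkn (dermokine), a secreted protein of the upper epidermis, at 6.64 in IgG replicate 2 against at most 5.90 elsewhere, and Perp, a desmosome-associated protein, at 6.67 against at most 6.04. The late cornified envelope gene Lce1b read 6.40 against at most 5.82, the epithelial serpin Serpinb5 6.15 against at most 5.50, and Ly6g6c 6.60 against at most 5.94. Genes not particular to epidermis were there too, among them the stretch-responsive Ankrd1 at 7.39 against at most 6.58, the immediate early factor Egr3 at 8.57 against at most 7.89, and the transcription factor Klf15 at 7.46 against at most 6.84. All 8 were named after their values were seen. Of the 24 measured cornified envelope genes, 10 (41.7%) had their highest value in IgG replicate 2, as did 5 of 15 epidermal keratins (33.3%), 6 of 18 desmosome and hemidesmosome genes (33.3%) and 7 of 22 epithelial identity genes (31.8%), where the share over all genes was 11.8%. For the epithelial identity list IgG replicate 3 held as many, 7 of 22. These shares are not separate from the 25 genes: Krt10, Krt1 and Krt77 are 3 of the 5 keratins. Dmkn and Perp are likewise counted in the cornified envelope and desmosome lists. Of 10 sebaceous gland genes, 3 (30%) were highest in IgG replicate 2. Among hair genes, 0 of 14 hair shaft keratins, 1 of 7 inner root sheath keratins and 0 of 15 hair follicle genes were highest there. The mean of the cornified envelope list ranged from 5.74 to 5.82 in anti-Ang2 tumours and from 5.70 to 5.91 in IgG tumours, and whether attached skin had a part in the Krt10 and Krt1 values was not tested.

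**Figure D3:**
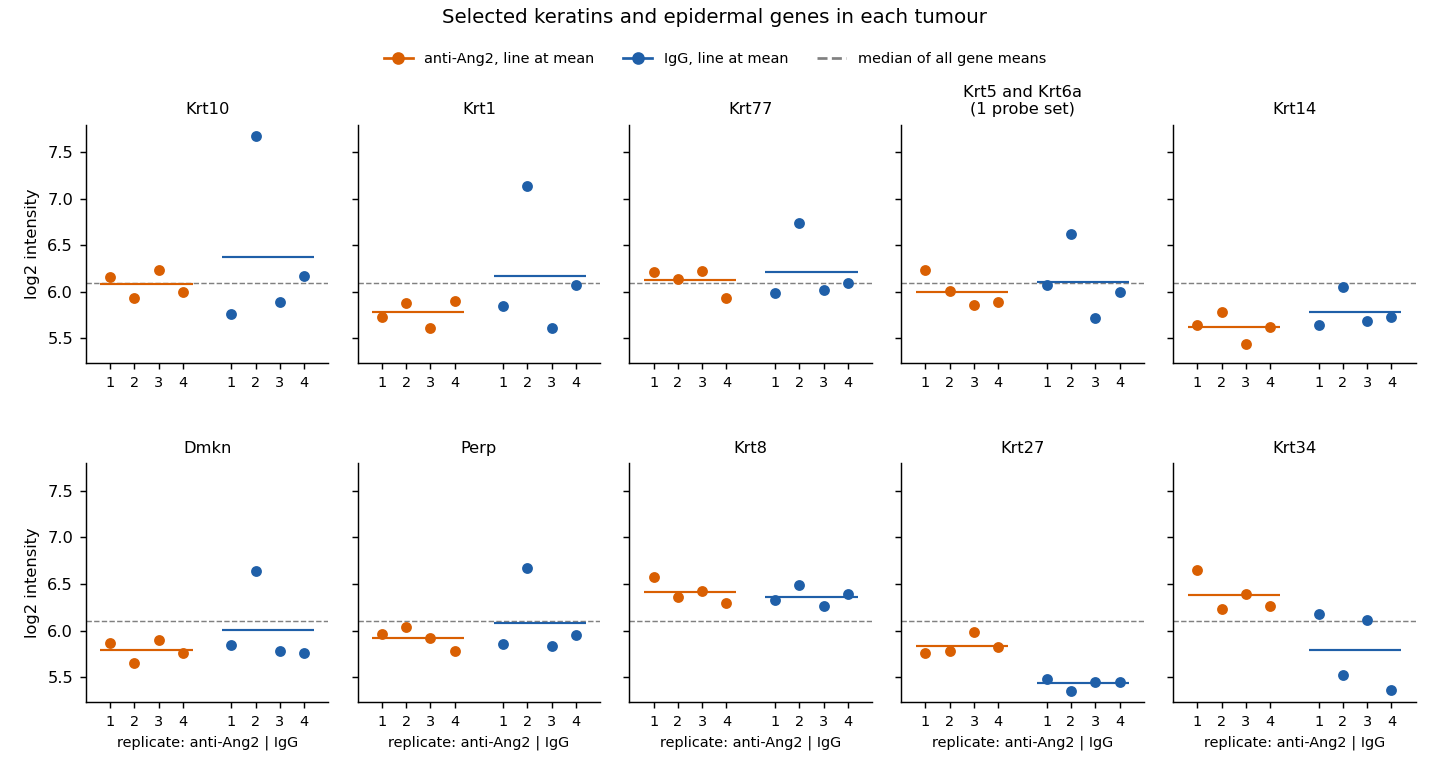
Log2 intensity of 8 keratin probe sets and 2 other epidermal genes, Dmkn and Perp, in each tumour. Points are tumours by replicate number, anti-Ang2 left and IgG right, solid lines are group means and dashed lines the median of all gene means. IgG replicate 2 is the highest point for Krt10, Krt1, Krt77, the Krt5 and Krt6a probe set, Krt14, Dmkn and Perp, while Krt27 and Krt34 are the panels whose groups do not overlap.

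No keratin passed the test for a difference between anti-Ang2 and IgG tumours. In the limma fit over all 22840 genes, 0 of 49 keratins had a Benjamini-Hochberg adjusted p under 0.05, and the background was 0%, with 0 genes called. The smallest adjusted p of a keratin was 0.444 (Krt27), and that of any gene was 0.254. At an unadjusted limma p under 0.05 stood 4 of 49 keratins (8.16%), against 7.09% of all genes, so the share was near the background. Of these, 3 were higher (background 4.09%) and 1 was lower (background 3%). In the authors' deposited table, 3 keratins (6.12%) had an unadjusted p under 0.05, against 5.05% of all genes.

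The precision of the fit bounded most keratin differences in array signal, which is not the amount of RNA. Signals were mostly low, with 18 of 49 keratin means above the olfactory receptor 95th percentile. The median standard error was 0.109 log2 units for keratins and 0.108 for all genes, and the 95% interval of the difference lay within 0.5 of 0 for 43 of 49 keratins. The other 6 were Krt10, Krt1, Krt6b, Krt34, Krt33a and Krt27. Within 1 of 0 lay the intervals of 48 keratins, all but Krt10. Across the keratins, 28 were higher (57.1%) and 21 lower in anti-Ang2 tumours, with a median difference of 0.04. Of all genes 53.5% were higher, with a median of 0.01. Of the olfactory receptor genes, the yardstick for low signal, 60.9% were higher, with a median of 0.03, so the keratin share was not above that of low-signal genes. After quantile normalization 25 keratins were higher, and after median centring 26.

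**Figure D4:**
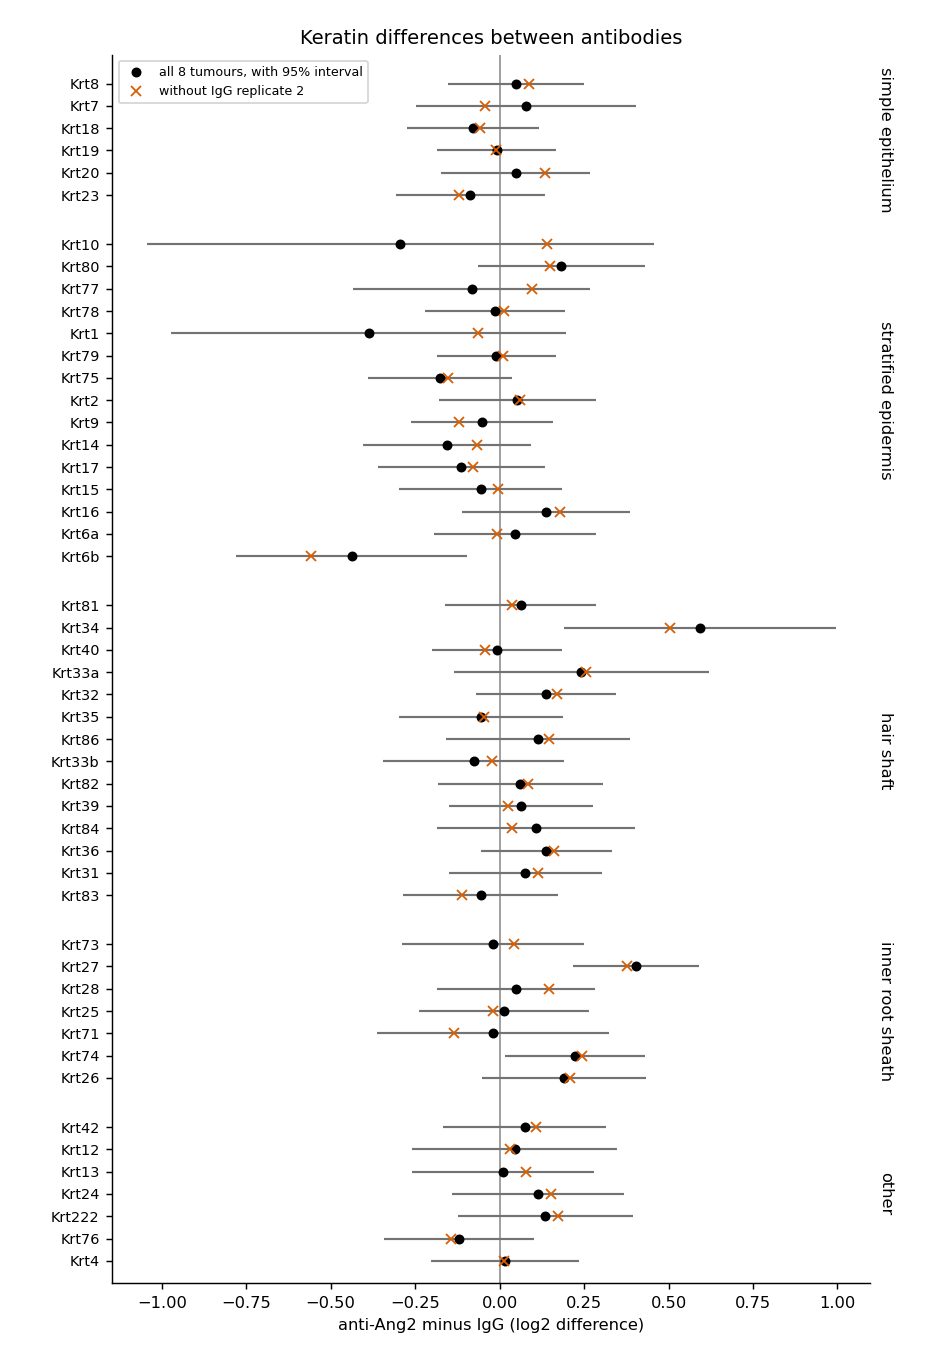
Anti-Ang2 minus IgG log2 difference of each keratin, with its 95% interval from limma, by class. Black points use all 8 tumours and crosses leave out IgG replicate 2. The crosses of 8 keratins, Krt10 and Krt77 among them, lie on the other side of 0 from their points. The intervals of Krt27, Krt34, Krt74 and Krt6b exclude 0 before adjustment over all genes.

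Among the epidermal keratins, 4 of 15 were higher and 11 lower in anti-Ang2 tumours, with a median difference of -0.06. Their mean signal in the 4 anti-Ang2 tumours was 5.78, 5.76, 5.74 and 5.66, against 5.70, 6.02, 5.75 and 5.84 in the IgG tumours. IgG replicates 2 and 4 were the highest and the other 6 tumours overlapped. Without IgG replicate 2 the median difference was -0.0043 and 8 of 15 were lower.

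The mean of Krt10 was 6.08 ± 0.14 in anti-Ang2 tumours and 6.38 ± 0.88 in IgG tumours (SD, n = 4 each). The Krt10 groups differed by -0.29 with a standard error of 0.34 (limma adjusted p = 0.89), and the difference changed sign to 0.14 without IgG replicate 2. Krt1 averaged 5.78 ± 0.13 and 6.17 ± 0.67 in the anti-Ang2 and IgG tumours, a difference of -0.39 with a standard error of 0.27 (limma adjusted p = 0.813) that was -0.06 without IgG replicate 2. Krt77 differed by -0.08, and by 0.09 without that tumour. For these suprabasal keratins the IgG spread came mainly from 1 tumour and exceeded the difference between groups.

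Krt80, a type II keratin of differentiating epithelia, read 6.49, 6.11, 6.38 and 6.16 in anti-Ang2 tumours and 6.02, 6.00, 6.31 and 6.08 in IgG tumours. Its difference of 0.18 (standard error 0.11, limma adjusted p = 0.793) was within the overlap of the groups. Krt14 differed by -0.16 (standard error 0.11, limma adjusted p = 0.826), and by -0.07 without IgG replicate 2. Krt75, counted here with the epidermal keratins although it is best known from the companion layer of the hair follicle, read 5.72, 5.46, 5.77 and 5.77 in anti-Ang2 tumours and 5.77, 5.93, 5.80 and 5.92 in IgG tumours, a difference of -0.18 with an unadjusted limma p of 0.0943.

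Krt6b, a keratin of wounded and rapidly growing epidermis, had the lowest mean of all 49 keratins. It read 5.21, 5.35, 5.16 and 5.04 in anti-Ang2 tumours and 5.65, 5.27, 5.50 and 6.09 in IgG tumours, with IgG replicate 4 the highest and IgG replicate 2 within the anti-Ang2 range. The difference was -0.44 (standard error 0.16, limma unadjusted p = 0.0169, adjusted p = 0.668), and the exact two-sided permutation test over samples gave p = 0.0571. It was -0.28 without IgG replicate 4, and the authors' deposited unadjusted p was 0.113. A probe set naming both Krt6b and Gm5478, not among the 49, did not share the drop. It read 5.59, 5.57, 5.59 and 5.45 in anti-Ang2 tumours and 5.50, 5.38, 5.57 and 5.43 in IgG tumours. Its highest value was in an anti-Ang2 tumour and its lowest in an IgG tumour. Krt6a is a near-identical copy of Krt6b, so signal may be shared between their probes. Krt6a read 5.47, 5.25, 5.60 and 5.49 in anti-Ang2 tumours and 5.34, 5.25, 5.40 and 5.63 in IgG tumours, a difference of 0.05 that was -0.0063 without IgG replicate 2.

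The remaining epidermal keratins had means from 5.46 to 5.99. Krt16 and Krt17, which like Krt6a mark wounded epidermis, lay at the 16.5th and 26.6th percentiles, with differences of 0.14 and -0.11. Krt15 of basal and bulge cells differed by -0.06, Krt2 of the upper epidermis by 0.05 and Krt9 of footpad skin by -0.05. For Krt78 and Krt79 the difference was -0.01, and 0.01 without IgG replicate 2.

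The simple epithelial keratins were evenly divided, with 3 of 6 higher, 3 lower and a median difference of 0.02, which was -0.03 without IgG replicate 2. Their mean signal was 5.86 ± 0.05 in anti-Ang2 tumours and 5.86 ± 0.02 in IgG tumours (SD, n = 4 each). Krt8 averaged 6.41 ± 0.12 in anti-Ang2 tumours and 6.37 ± 0.10 in IgG tumours (SD, n = 4 each), a difference of 0.05 with a 95% interval from -0.15 to 0.25 (limma adjusted p = 0.942). Krt18, the type I partner of Krt8, read 5.84, 5.85, 5.76 and 5.75 in anti-Ang2 tumours and 5.97, 5.94, 5.90 and 5.69 in IgG tumours, a difference of -0.08 (limma adjusted p = 0.886).

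Krt7 and Krt19 mark ducts and glands. Krt7 read 6.10, 6.23, 6.18 and 5.70 in anti-Ang2 tumours and 6.16, 5.61, 6.10 and 6.03 in IgG tumours, with anti-Ang2 replicate 4 and IgG replicate 2 low. Krt19 read 5.81, 5.84, 5.93 and 5.72 in anti-Ang2 tumours and 5.88, 5.83, 5.83 and 5.80 in IgG tumours. Their differences were 0.08 and -0.01, and that of Krt7 was -0.04 without IgG replicate 2. Krt20 of intestinal epithelium differed by 0.05 and Krt23 by -0.09, at the 28.2nd and 17.4th percentiles. Of 5 mesothelial genes, 0 were above the median gene, and the part of mesothelium in these values was not tested.

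Hair keratins build the cortex and cuticle of the shaft. Of the 14 measured, 10 were higher and 4 lower in anti-Ang2 tumours, with a median difference of 0.07. Their mean signal was 5.92 ± 0.08 in anti-Ang2 tumours and 5.82 ± 0.08 in IgG tumours (SD, n = 4 each), a gap close to the spread.

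Krt34, a type I hair keratin (probe set 17269291, chromosome 11), had the widest difference of any keratin. It read 6.65, 6.23, 6.39 and 6.27 in anti-Ang2 tumours and 6.17, 5.53, 6.11 and 5.36 in IgG tumours. All anti-Ang2 tumours were above all IgG tumours, and IgG replicates 2 and 4 were low. The difference was 0.59 with a standard error of 0.18, 1.51-fold (limma unadjusted p = 0.008, adjusted p = 0.616). The exact permutation p of 0.0286 is the smallest that 4 against 4 samples allow.

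The other hair shaft keratins had smaller differences than Krt34. Krt33a, a related type I hair keratin, read 6.64, 5.68, 6.02 and 6.12 in anti-Ang2 tumours and 6.03, 5.91, 5.71 and 5.83 in IgG tumours, with anti-Ang2 replicate 1 apart from the rest. Its difference was 0.24 (standard error 0.17), and 0.07 without that tumour. Krt32 and Krt36 each differed by 0.14, Krt81 by 0.06 (limma adjusted p = 0.928) and Krt40 by -0.01. The differences of Krt86 and Krt84 were 0.11, that of Krt31 was 0.08, those of Krt39 and Krt82 were 0.06, and those of Krt35 and Krt33b were -0.06 and -0.08. The gene printed in the annotation as Krt83, named Krt87 in the current RefSeq table, differed by -0.06 and had the lowest mean of the class, 5.43.

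The inner root sheath, which moulds the growing hair, has keratins of its own, and 5 of 7 were higher in anti-Ang2 tumours, with a median difference of 0.05, or 0.15 without IgG replicate 2. Their mean signal was 5.67 ± 0.07 in anti-Ang2 tumours and 5.55 ± 0.03 in IgG tumours (SD, n = 4 each). Krt27, a type I chain (17269042, chromosome 11), read 5.76, 5.78, 5.98 and 5.83 in anti-Ang2 tumours and 5.48, 5.35, 5.45 and 5.45 in IgG tumours. The groups did not overlap. The difference was 0.40 with a standard error of 0.08, 1.32-fold (limma unadjusted p = 0.000584, adjusted p = 0.444, exact permutation p = 0.0286).

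The Krt27 levels were low: its mean lay at the 27.6th percentile of gene means and below the 95th percentile of the olfactory receptors. Krt27 and Krt34 were the only keratins whose groups did not overlap, 2 of 49 (4.08%), against 3.74% of all genes. In the authors' deposited table the ratio of anti-Ang2 to IgG was 1.32 for Krt27 (p = 0.0035) and 1.47 for Krt34 (p = 0.0360), both unadjusted.

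Krt74, a type II root sheath keratin, read 5.73, 5.76, 5.50 and 5.55 in anti-Ang2 tumours and 5.30, 5.48, 5.51 and 5.37 in IgG tumours. Its difference was 0.22 (standard error 0.09, limma unadjusted p = 0.0371, adjusted p = 0.696), with 1 anti-Ang2 tumour just inside the IgG range. Krt26 differed by 0.19, with IgG replicate 1 low at 5.06 and the other 7 tumours between 5.42 and 5.62, and by 0.09 without IgG replicate 1. For the remaining root sheath keratins, Krt73, Krt71, Krt28 and Krt25, the differences were -0.02, -0.02, 0.05 and 0.01. Without IgG replicate 2 those of Krt73 and Krt25 were 0.04 and -0.02, of opposite sign. Krt73 alone among them had a mean above the olfactory receptor percentile.

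Of the 7 other keratins, 6 were higher in anti-Ang2 tumours, with a median difference of 0.04. Krt42 differed by 0.07 (limma adjusted p = 0.917). Krt12 of the cornea differed by 0.04, Krt13 and Krt4 of the moist mucosae by 0.01 and 0.02, Krt76 of the palate by -0.12, Krt24 by 0.11 and Krt222 by 0.14. All but Krt42 had means below the median gene.

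Known type I and type II partners, and keratins made together, were compared over the 8 tumours. For 6 textbook pairs Pearson's r and Spearman's rho were computed with exact permutation p-values, and no pair had an adjusted p under 0.05. Krt1 and Krt10 had r = 0.91 (exact permutation p = 0.0673, adjusted 0.202) and rho = 0.43 (p = 0.299, adjusted 0.598). Without IgG replicate 2 alone r was -0.04, so the relation rested on that tumour, and r was -0.26 without the 2 tumours farthest from the Krt1 median, IgG replicates 2 and 3. The Krt5 and Krt6a probe set and Krt14 had r = 0.74 (exact permutation p = 0.057, adjusted 0.202) and rho = 0.48 (p = 0.243, adjusted 0.598), with r = 0.20 without IgG replicate 2 and 0.42 without the same 2 tumours.

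Krt8 and Krt18 had r = -0.02 (exact permutation p = 0.953) and rho = -0.10. Krt7 and Krt19, the duct keratins, had r = 0.62 (exact permutation p = 0.111, adjusted 0.222) and rho = 0.74 (p = 0.0458, adjusted 0.275), with r = 0.64 without the 2 tumours farthest from the Krt7 median. Without IgG replicate 2 alone this pair had r = 0.85 (exact permutation p = 0.0137, not adjusted over the pairs) and rho = 0.86. The pairs of Krt6a with Krt16 (r = -0.29, exact permutation p = 0.494) and with Krt17 (r = -0.01, p = 0.98) had r near or below 0, and without IgG replicate 2 the values were -0.25 and 0.24.

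Genes that work beside keratins were examined as lists. Desmosomes and hemidesmosomes anchor keratin filaments to the cell membrane: 6 of 18 genes were above the median gene, 10 were higher, 8 lower and 0 passed the test in limma. At an unadjusted p under 0.05 stood 0 of the 18, against 7.09% of all genes. The strongest signals in that list were those of Dst, Itga6, Jup and Plec, which cells other than epithelium also make. Jup (plakoglobin) differed by -0.41 with a standard error of 0.20 (limma adjusted p = 0.724). Of the 24 cornified envelope genes, 3 were above the median gene, 12 were higher and 12 lower. The keratinocyte differentiation-associated gene Krtdap, at a difference of -0.25 (limma unadjusted p = 0.0347, adjusted p = 0.691), was the 1 of those 24 under 0.05 unadjusted, against 7.09% of all genes. With the replicate number as a block the unadjusted p was 0.059 for Krtdap and 0.0228 for Jup.

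The epithelial identity list, which holds adhesion and junction genes, had 5 of 22 genes above the median gene, 5 higher and 17 lower. Without IgG replicate 2, 13 were lower. At an unadjusted limma p under 0.05 stood 3 of the 22, against 7.09% of all genes: Sfn higher, and Spint1 and Spint2 lower. None of the 22 passed the adjusted test. Sfn (stratifin, an epithelial 14-3-3 protein) read 7.78, 7.70, 7.24 and 7.05 in anti-Ang2 tumours and 6.77, 7.36, 6.84 and 6.67 in IgG tumours, a difference of 0.53 with a standard error of 0.19 (limma unadjusted p = 0.0162, adjusted p = 0.668). Spint1, an inhibitor of epithelial serine proteases, differed by -0.33 with a standard error of 0.12 (limma unadjusted p = 0.016, adjusted p = 0.668). Cdh1 (E-cadherin), which melanocytes also make, averaged 6.46 ± 0.25 in anti-Ang2 tumours and 6.68 ± 0.23 in IgG tumours (SD, n = 4 each).

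The other intermediate filaments were a contrast in level. Vim (vimentin), the filament of mesenchymal and melanoma cells, stood at the 99.2nd percentile of gene means and read 11.65, 11.43, 11.27 and 11.14 in anti-Ang2 tumours, against 10.94, 10.92, 11.16 and 11.06 in IgG tumours. The groups differed by 0.35 with a standard error of 0.12 (limma unadjusted p = 0.0116, adjusted p = 0.641), and overlapped. Above the median gene were 6 of 49 keratins, against 9 of the 15 measured genes of that list.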

How the data were processed

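Per the labels' protocols, 250 ng of total tumour RNA per sample was labelled as biotinylated single-stranded cDNA for Affymetrix whole-transcript arrays. The authors deposited 1 linear intensity per probe set and array. Their background correction and normalization are not given in the sources used here. Per the file headers, the deposited table also holds the ratio of group means and an unadjusted p-value.

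Log2 of the deposited intensities was taken, with no pseudocount. Of 24648 probe sets, 5 lacked a value on some array and 1385 named several genes, 2 of these keratin probe sets, and all were left out. Groups were compared with limma 3.58.1 in R 4.3.3 over 22840 genes, with Benjamini-Hochberg adjustment at 0.05, and single genes by exact permutation over 70 assignments. On simulated data for the comparison of anti-Ang2 with IgG over 22840 genes, 43.7% of genes changed by 0.5 log2 units and 89.1% of those changed by 1 were recovered. Each of 10 runs had 200 changed genes and normal noise, with the observed spreads shuffled between genes, and 7.5 unchanged genes were called per run. The real fit called 0 genes, so these shares need not hold for the keratins. With 4 arrays a group, the number of arrays limits the precision. Promoters are from RefSeq (GRCm38.p6).

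The members, classes and lists were chosen with earlier results of these data known. All 49 keratins are named. The rule for naming took the keratins above the median gene and those with unadjusted p under 0.05. It also took the 3 highest and the 3 smallest p per class, textbook pairs, and of other lists the 4 highest and the 2 smallest p. The remaining keratins, Spint2 and the other genes named as standing apart in IgG replicate 2 fall outside that rule. Other normalizations, filters, the replicate number as a block and each array left out were tried. Deviations of equally numbered samples correlated at 0.061, -0.0539, 0.0688 and 0.0802 for replicates 1 to 4, so the numbers were not taken as pairs.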

Additional observations from a re-analysis of the deposited data

Results flagged for a closer look

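Within groups of 4 tumours, values that lay far from the other 3 relative to the range of the group were looked for in 140 groups, and 6 (4.29%) were found, where chance gives about 1 in 20. Krt77 was high in IgG replicate 2, at 6.74 log2 intensity against 5.99 to 6.09 in the other IgG tumours. Krt75 was low in anti-Ang2 replicate 2, at 5.46 against 5.72 to 5.77. Krt81 was high in IgG replicate 3, at 6.47 against 6.13 to 6.15, and Krt31 was low in IgG replicate 4, at 5.41 against 5.70 to 5.75. The mean of the cornified envelope list was high in anti-Ang2 replicate 1, at 5.82 against 5.74 to 5.75, and that of the other intermediate filaments was high in IgG replicate 1, at 7.23 against 7.05 to 7.06. Krt10 and Krt1 in IgG replicate 2 did not meet this criterion, because their other 3 IgG values were themselves spread.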

How the results depend on the processing

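No keratin passed an adjusted p of 0.05 under any setting tried (quantile normalization, median centring, genes above the median gene, all probe sets, limma with trend and robust, the replicate block, each array left out), and the smallest adjusted p of a keratin ranged from 0.348 to 0.791. With the replicate number as a block, 3 keratins were at an unadjusted p under 0.05 (Krt27, Krt34 and Krt6b). The block changed no call at the adjusted threshold. At the unadjusted one it moved Krt74 (0.059), Krtdap (0.059) and Spint2 (0.0546) above 0.05 and Jup (0.0228) below. Over all genes, 0 to 1 passed with an array left out, the 1 being without anti-Ang2 replicate 2. Among genes above the median gene alone, where 6 keratins were tested, 0 keratins and 923 genes were at an unadjusted p under 0.05. In the fit over all 22840 genes, 49 of them keratins, the unadjusted counts with an array left out were 3 to 5 keratins and 1145 to 2013 genes. Keratins above the median gene numbered 1 when required on each array and 5 to 7 with an array left out. Class medians with an array left out ranged from -0.027 to 0.0258 for simple epithelium, -0.10 to -0.0043 for epidermis, 0.02 to 0.12 for the hair shaft, 0.0083 to 0.15 for the inner root sheath and 0.0095 to 0.10 for the others. The simple epithelial median was -0.0014 after quantile normalization. Without IgG replicate 2, 8 of 49 keratins changed sign: Krt10 (-0.50 to 0.14 with an array left out), Krt77 (-0.16 to 0.0948), Krt7, Krt6a, Krt25, Krt73, Krt78 and Krt79. Among the named genes refitted without each other array, signs also turned for Krt8 (-0.0052 to 0.0885) without anti-Ang2 replicate 1 and for Krt42 (-0.0069 to 0.12) without IgG replicate 4. The cause was not tested.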

Other observations

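Keratin-associated proteins, which cross-link keratin filaments in the hair shaft, numbered 49 and lay lower than the keratins, with a median at the 13.7th percentile of gene means. Of them 6 were above the median gene, 31 were higher and 18 lower in anti-Ang2 tumours, and 0 passed the limma test. Krtap4-9 read 6.27, 6.22, 6.32 and 6.00 log2 intensity in anti-Ang2 tumours and 5.85, 5.63, 5.86 and 5.62 in IgG tumours, a difference of 0.46 with a standard error of 0.10 (limma adjusted p = 0.45). Its groups did not overlap, which was so for 2 of the 49 keratin-associated proteins, against 3.74% of all genes. That is the same count as among the 49 keratins (4.08%).

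Of 10 genes of mammary and other glands of the flank, 3 were higher and 7 lower. Wfdc18 (printed as Expi in the annotation) read 7.14, 7.90, 6.64 and 6.94 in anti-Ang2 tumours and 6.16, 6.19, 6.34 and 6.46 in IgG tumours, a difference of 0.87 with a standard error of 0.22 (limma adjusted p = 0.514). The milk protein gene Csn3 ranged from 7.45 to 11.38 over the anti-Ang2 tumours and from 9.04 to 10.17 over the IgG tumours, with its widest spread among anti-Ang2 tumours.

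Of 10 sebaceous gland genes, 4 were higher and 6 lower. Soat1, which esterifies cholesterol in many cells, differed by 0.40 (limma unadjusted p = 0.0186, adjusted p = 0.67). Of 15 hair follicle genes, 10 were higher and 5 lower, with Sox9, a transcription factor also made by melanoma cells, at 0.46 (limma adjusted p = 0.79).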
